A study of Mus musculus with 16 samples.

Results

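The genes described here are 9 genes of antigen presentation and dendritic cells, among 19938 genes with a level in mouse lung: H2-Aa, H2-Ab1, H2-Eb1, Cd74, H2-DMa, H2-Oa, Ciita, Cd86 and Flt3. They were taken by symbol from the platform annotation, and each had 1 probe set. MHC class II molecules are pairs of an alpha and a beta chain that show peptides to CD4 T cells. Dendritic cells, B cells and activated macrophages make them. The invariant chain (Cd74) guards their peptide groove on the way to the endosome, and the coactivator Ciita switches their genes on. Flt3 is the cytokine receptor on which dendritic cells and their progenitors depend, and Cd86 delivers the costimulatory signal beside the peptide.

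Total lung RNA of C57BL/6 mice aged 10 to 12 weeks was hybridised to 16 Affymetrix whole-transcript arrays. Silica in crystalline form (CS), or phosphate-buffered saline (PBS) as the control, had been instilled into the trachea. Groups differed in BLT1, the leukotriene B4 receptor that draws neutrophils and other leukocytes. The KRasLA1 lungs, taken at day 60, were BLT1-/-KRasLA1 CS, BLT1-/-KRasLA1 PBS, BLT1+/+KRasLA1 CS and BLT1+/+KRasLA1 PBS. The lungs of day 2 were BLT1-/- CS, BLT1-/- PBS, BLT1+/+ CS and BLT1+/+ PBS. Each CS group held 3 lungs and each PBS group was a single array of RNA pooled from 3 mice. KRasLA1 is an oncogenic allele that recombines at random in single cells and yields lung tumors. All lungs of day 60 carried it and none of day 2 did, so day and KRasLA1 cannot be told apart here. The labels call the CS lungs biological replicates but give no animal numbers, so a p-value reflects the scatter of these samples, which may be partly technical. In whole lung, fewer cells of a type and less RNA per cell cannot be told apart.

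The tissue label was checked against lung markers. Surfactant protein C (Sftpc) lay between 14.25 and 14.47 and the club cell protein Scgb1a1 between 14.24 and 14.47 on the log2 scale on all 16 arrays. Of the dendritic cell markers, Xcr1 ranged from 7.63 to 9.03, Clec9a from 7.22 to 8.72, Cd209a from 9.39 to 11.11 and Siglech from 7.47 to 8.51. The Y-linked gene Eif2s3y set 3 arrays apart, at 10.09 in BLT1+/+KRasLA1 CS replicate 2, 9.04 in the BLT1-/-KRasLA1 PBS pool and 9.68 in the BLT1+/+KRasLA1 PBS pool, against 4.27 to 4.74 on the other 13. At day 60 both PBS pools but only 1 CS lung were thus high in Eif2s3y, so this difference largely goes along with PBS against CS there. Between the pools of the 2 times it goes along with day. Its part in the results of day 60, in the pool comparison and in the difference between the times was not tested.

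After silica, Cd86, Flt3 and Ciita were higher than PBS at day 60, while the class II chains, their chaperones and Ciita were lower than PBS at day 2. Averaged over both BLT1 genotypes, 3 of the 9 genes were higher than PBS at day 60 and none lower by limma at an adjusted p below 0.05, where 3.35% of all genes were called higher and 0.677% lower. At day 2, 7 of the 9 were lower than PBS and none higher, where 4.37% of all genes were called lower and 8.03% higher. The response itself differed between the times for 8 of the 9, each more positive at day 60 than at day 2, where 1.7% of all genes were called that way. At day 60 all 6 CS lungs lay above both PBS pools for 9 of 9 genes, as for 9.66% of all genes. At day 2 all 6 CS lungs lay below both pools for 8 of 9, as for 10.0% of all genes, and Cd86 was the exception. The 6 CS lungs of day 60 also lay above the 6 of day 2 for 9 of 9 genes, as for 6.47% of all genes.

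Those calls lean on the pools, because each PBS group is 1 array. In an additive fit of the remaining 7 arrays of a day, the count at day 60 was 0 without the BLT1-/-KRasLA1 pool and 2 without the BLT1+/+KRasLA1 pool, which kept Ciita (adjusted p = 0.0437) and Cd86 (0.0198). The count at day 2 was 0 without the BLT1-/- pool, with adjusted p from 0.105 to 0.484 for the 7 genes. Without the BLT1+/+ pool it was 2, which kept H2-Aa (0.0471) and H2-Oa (0.0423). The signs were the same in all of these fits. Calls over all genes fell too, to 58 and 171 at day 60 against 802 with both pools, and to 96 and 426 at day 2 against 2473. All contrasts share 1 estimate of the spread, and without BLT1+/+ CS day 2 replicate 1 the count at day 60 was 6.

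**Figure D1:**
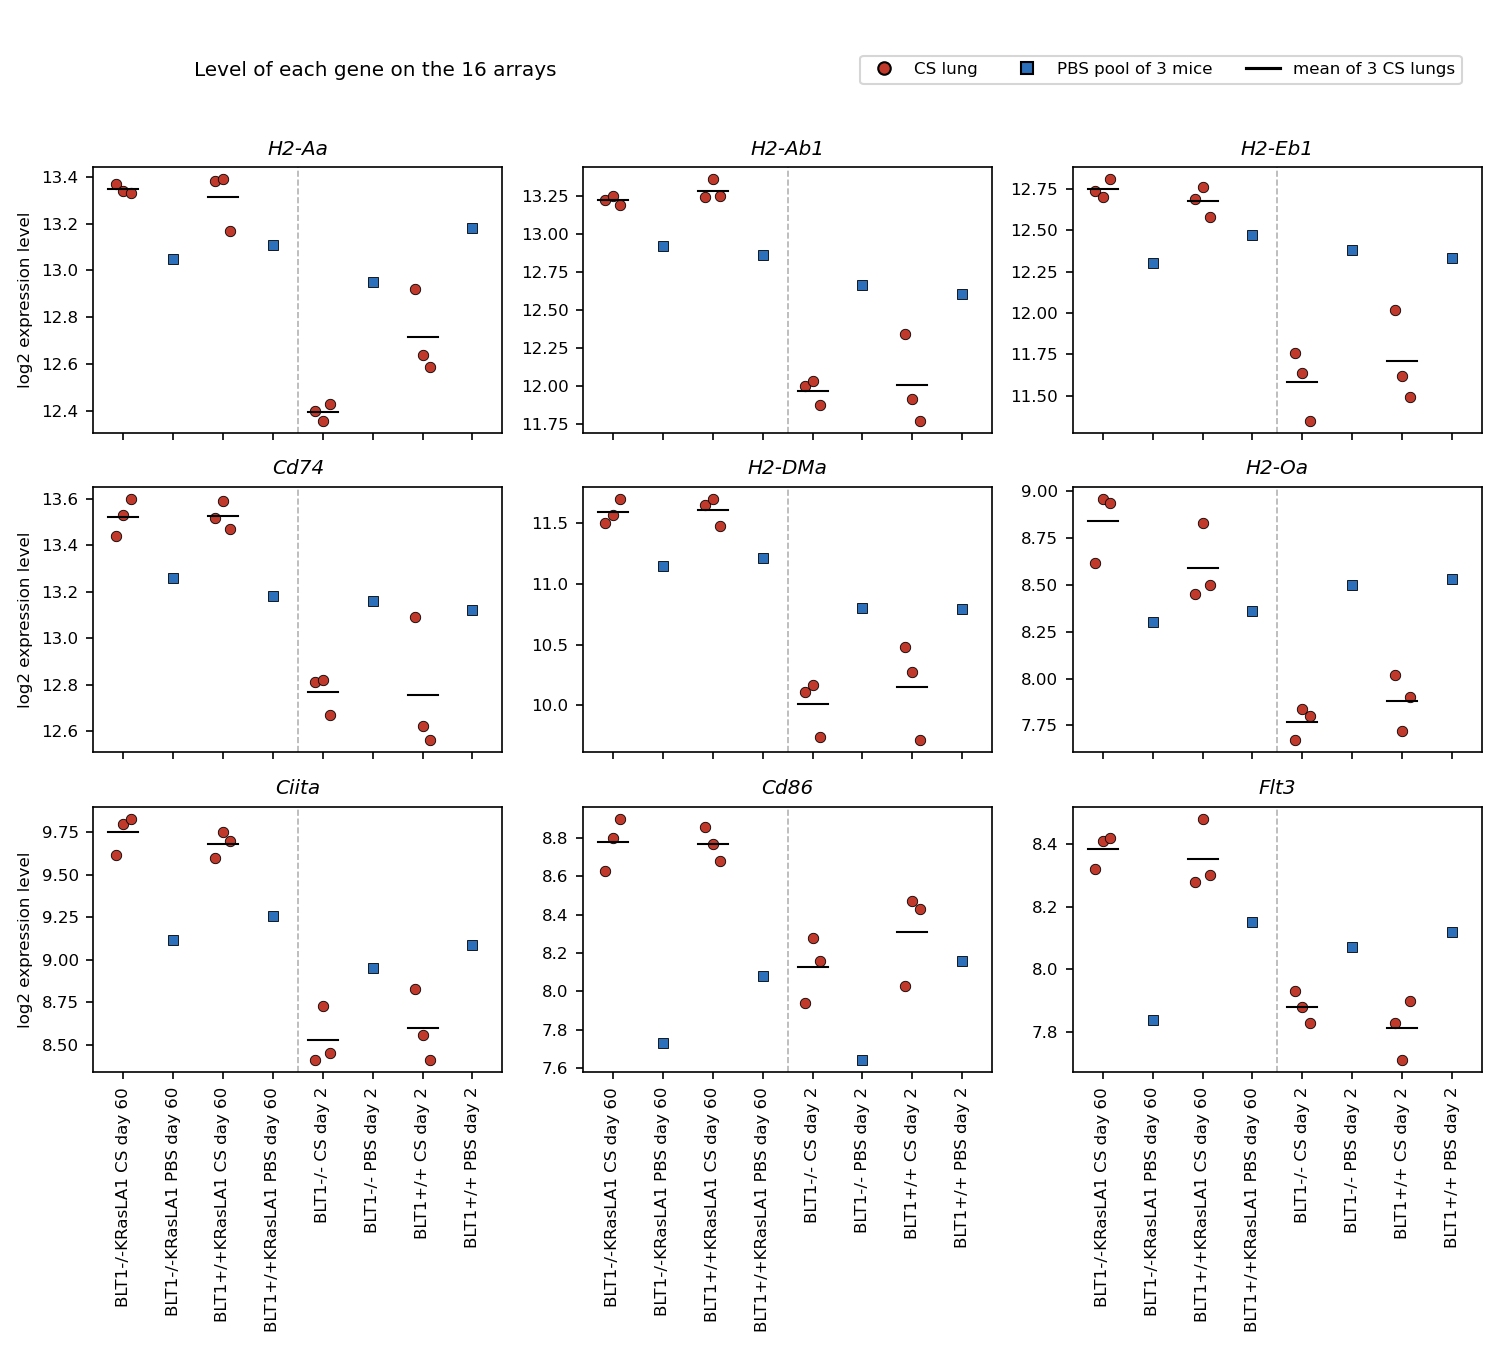
Log2 expression level (vertical axis, a range of its own for each gene) of the 9 genes in the 8 groups. Circles are CS lungs, squares are PBS pools and lines are means of 3 CS lungs. The CS lungs stand above the pools for all 9 genes left of the dashed line (day 60), and below them right of it (day 2) for all but Cd86.

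**Figure D2:**
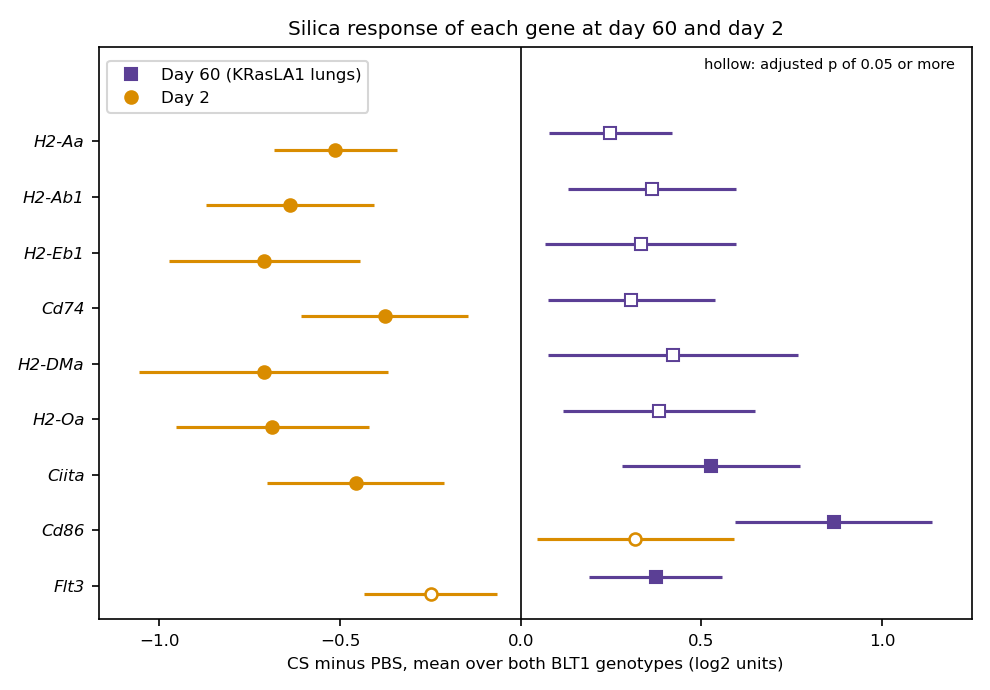
Silica response of each gene as CS minus PBS in log2 units, averaged over BLT1 genotypes. Squares are day 60, circles are day 2, bars are 95% confidence intervals from limma and hollow symbols have an adjusted p of 0.05 or more. Ciita, Cd86 and Flt3 are filled at day 60, and the 7 genes from H2-Aa to Ciita at day 2.

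The class II chains come first. H2-Aa encodes the alpha chain of the H2-A molecule, H2-Ab1 its beta chain, and H2-Eb1 the beta chain of H2-E. H2-Aa (probe set 10450154) had levels of 13.37, 13.34 and 13.33 in BLT1-/-KRasLA1 CS lungs against 13.05 in their PBS pool, and 13.38, 13.39 and 13.17 in BLT1+/+KRasLA1 CS lungs against 13.11 in theirs. At day 2 it had 12.40, 12.36 and 12.43 in BLT1-/- CS lungs against 12.95 in the pool, and 12.92, 12.64 and 12.59 in BLT1+/+ CS lungs against 13.18 in the pool. Its 4 pools thus lay within 0.23 log2 units of each other, and the CS lungs of each day lay on 1 side of both pools of that day. The mean response of H2-Aa was 0.25 ± 0.08 log2 units at day 60 (standard error, as for all log2 differences below; adjusted p = 0.122) and -0.51 ± 0.08 at day 2 (adjusted p = 0.0014), a fall of 1.43-fold.

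H2-Ab1 (10444291) ran in the same order. At day 60 it had 13.22, 13.25 and 13.19 in BLT1-/-KRasLA1 CS lungs against 12.92 in the pool, and 13.24, 13.36 and 13.25 in BLT1+/+KRasLA1 CS lungs against 12.86. At day 2 it had 12.00, 12.03 and 11.87 in BLT1-/- CS lungs against 12.66, and 12.34, 11.91 and 11.77 in BLT1+/+ CS lungs against 12.60. The highest CS lung of day 2, a BLT1+/+ lung, was 0.26 below the lower pool of that day, and the response was 0.36 ± 0.11 at day 60 (adjusted p = 0.0897) and -0.64 ± 0.11 at day 2 (adjusted p = 0.0023).

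H2-Eb1 (10444298) had 12.74, 12.70 and 12.81 in BLT1-/-KRasLA1 CS lungs against 12.30 in the pool, and 12.69, 12.76 and 12.58 in BLT1+/+KRasLA1 CS lungs against 12.47. The levels of day 2 were 11.76, 11.64 and 11.35 in BLT1-/- CS lungs against 12.38, and 12.02, 11.62 and 11.49 in BLT1+/+ CS lungs against 12.33. No CS lung overlapped a pool at either time. The response of H2-Eb1 was 0.33 ± 0.12 at day 60 (adjusted p = 0.2005) and -0.71 ± 0.12 at day 2 (adjusted p = 0.0027), 1.64-fold lower.

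Among the other class II chains, H2-Eb2, a further beta chain gene, rose by 1.14 ± 0.17 at day 60 (adjusted p = 0.00196) and fell by 0.80 ± 0.17 at day 2 (adjusted p = 0.0092). It had 9.47, 9.65 and 9.71 in BLT1-/-KRasLA1 CS lungs against 8.50 in the pool, and 7.81, 7.79 and 7.75 in BLT1-/- CS lungs of day 2 against 8.75. H2-Ea, the alpha chain of H2-E, lies deleted at its start in C57BL/6 mice, and its probe set stayed between 6.07 and 6.45 on all 16 arrays. In all, 1 of 5 class II chain genes measured was called higher at day 60 and 4 of 5 lower at day 2. Of the 2 that are not among the 9 genes, 1 was called higher at day 60 and 1 lower at day 2. Over all genes, 3.35% were called higher at day 60 and 4.37% lower at day 2.

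The promoters of class II genes are known to carry an X box, bound by the RFX complex, and a Y box, bound by NF-Y, at a nearly fixed distance. Ciita joins these factors and does not bind the DNA itself. RefSeq promoter windows (GRCm38.p6, 250 bases before to 50 after a start site) were given for 5 of the 9 genes. Pieces of 5 windows are shown because they hold these letters in this order. All 5 genes were called lower at day 2, where 4.37% of all genes were. H2-DMa, whose windows held no such pair, was called lower too, as were H2-Ab1, Cd74 and Ciita, for which no window was used. A link between the letters and the calls was not tested. In the windows of H2-Aa, H2-Eb1 and H2-Oa, and of the related H2-Ob and H2-Eb2, the core of the X box, GCAAC, stood 30 to 33 bases before the core of the Y box, ATTGG. Both cores are in capitals, and the strand of the gene is given.
H2-Aa, chr17:34287832-34287931, minus strand: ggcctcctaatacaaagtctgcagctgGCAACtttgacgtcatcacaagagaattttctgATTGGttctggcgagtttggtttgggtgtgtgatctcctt
H2-Eb1, chr17:34305748-34305847, plus strand: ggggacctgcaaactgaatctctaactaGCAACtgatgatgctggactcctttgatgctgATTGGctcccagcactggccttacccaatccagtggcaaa
H2-Oa, chr17:34092276-34092375, plus strand: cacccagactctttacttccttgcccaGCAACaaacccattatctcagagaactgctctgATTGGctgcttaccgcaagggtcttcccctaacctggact
H2-Ob, chr17:34238788-34238887, plus strand: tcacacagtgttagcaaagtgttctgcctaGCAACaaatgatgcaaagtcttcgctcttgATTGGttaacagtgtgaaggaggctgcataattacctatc
H2-Eb2, chr17:34325515-34325614, plus strand: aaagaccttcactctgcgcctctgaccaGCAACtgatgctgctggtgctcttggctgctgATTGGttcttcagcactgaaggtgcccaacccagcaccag

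The Y box core began 48 bases before the start site in H2-Aa, 59 in H2-Eb1, 43 in H2-Oa, 57 in H2-Ob and 100 in H2-Eb2. Searched on both strands, ATTGG was in 37.4% and GCAAC in 35.2% of 32851 windows of 27025 genes. GCAAC 25 to 40 bases before ATTGG on 1 strand was in 0.794% of them. The letters and the spacing were chosen after the windows had been read, and the motifs do not overlap. The window of Flt3, which is no class II gene, held GCAAC and no ATTGG, and of the 2 windows of H2-DMa the second held an ATTGG 198 bases before the start with no GCAAC in that distance. A match describes the letters and not binding in these lungs. No window was used for H2-Ab1, Cd74, Ciita and Cd86.

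Cd74, H2-DMa and H2-Oa act on the molecule after it is made. Cd74 is the invariant chain, H2-DMa is a chain of the H2-DM exchange factor that loads peptide, and H2-Oa and H2-Ob form H2-O, which restrains H2-DM and is made mostly by B cells and some dendritic cells. Cd74 (10456005) had 13.44, 13.53 and 13.60 in BLT1-/-KRasLA1 CS lungs against 13.26 in the pool, and 13.52, 13.59 and 13.47 in BLT1+/+KRasLA1 CS lungs against 13.18. The day 2 levels were 12.81, 12.82 and 12.67 in BLT1-/- CS lungs against 13.16, and 13.09, 12.62 and 12.56 in BLT1+/+ CS lungs against 13.12. BLT1+/+ replicate 1 came within 0.03 of its pool, and the other 5 CS lungs of day 2 were at least 0.30 below the lower pool. The response of Cd74 was 0.31 ± 0.11 at day 60 (adjusted p = 0.169) and -0.38 ± 0.11 at day 2 (adjusted p = 0.0352). That call at day 2 was the least stable of the 7: it was lost without the variance trend (adjusted p = 0.0593), with the 8 arrays of the day alone (0.0931) and without any of 3 CS lungs of day 2 (0.0590 to 0.0727).

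H2-DMa (10444229) spanned the widest range of the 9 genes, 1.99 log2 units. It had 11.50, 11.57 and 11.70 in BLT1-/-KRasLA1 CS lungs against 11.15 in the pool, and 11.65, 11.70 and 11.48 in BLT1+/+KRasLA1 CS lungs against 11.21. The levels of day 2 were 10.11, 10.17 and 9.74 in BLT1-/- CS lungs against 10.80, and 10.48, 10.27 and 9.71 in BLT1+/+ CS lungs against 10.79. Its CS lungs of day 2 also had a wide spread, with an SD of 0.232 in BLT1-/- and 0.396 in BLT1+/+ lungs (n = 3 each). The response of H2-DMa was 0.42 ± 0.16 at day 60 (adjusted p = 0.217) and -0.71 ± 0.16 at day 2 (adjusted p = 0.0114).

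H2-Oa (10444223) had 8.62, 8.96 and 8.94 in BLT1-/-KRasLA1 CS lungs against 8.30 in the pool, and 8.45, 8.83 and 8.50 in BLT1+/+KRasLA1 CS lungs against 8.36. At day 2 it had 7.67, 7.84 and 7.80 in BLT1-/- CS lungs against 8.50, and 8.02, 7.72 and 7.90 in BLT1+/+ CS lungs against 8.53. At day 60 the lowest CS lung was 0.09 above the higher pool, while at day 2 the gap was 0.47. The response of H2-Oa was 0.38 ± 0.12 at day 60 (adjusted p = 0.128) and -0.69 ± 0.12 at day 2 (adjusted p = 0.0034). Its partner H2-Ob was at 0.38 ± 0.24 at day 60 (adjusted p = 0.570) and fell by 1.53 ± 0.24 at day 2 (adjusted p = 0.00157). All 4 genes of this group that were measured were called lower at day 2 and none at day 60, and H2-Ob is the 1 outside the 9 genes. At day 2, 4.37% of all genes were called lower.

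Ciita (10433507), the coactivator of class II genes, was called at both times. It had 9.62, 9.80 and 9.83 in BLT1-/-KRasLA1 CS lungs against 9.12 in the pool, and 9.60, 9.75 and 9.70 in BLT1+/+KRasLA1 CS lungs against 9.26. The day 2 levels were 8.41, 8.73 and 8.45 in BLT1-/- CS lungs against 8.95, and 8.83, 8.56 and 8.41 in BLT1+/+ CS lungs against 9.09. Ciita rose by 0.53 ± 0.11 at day 60 (1.44-fold, adjusted p = 0.0182) and fell by 0.46 ± 0.11 at day 2 (1.37-fold, adjusted p = 0.0191). With the 8 arrays of day 2 alone the fall had an adjusted p = 0.0597. Of 8 class II transcription genes, Ciita was the one called at either time. The NF-Y subunit Nfyb was at -0.07 ± 0.10 at day 60 (adjusted p = 0.847) and 0.27 ± 0.10 at day 2 (adjusted p = 0.0987), and the RFX subunit Rfx5 at 0.21 ± 0.13 (adjusted p = 0.564) and -0.04 ± 0.13 (adjusted p = 0.899).

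Interferon-gamma is the known inducer of Ciita. Of 11 genes of its pathway and targets, 3 were higher at day 60 (median 0.23) and 1 at day 2 (median 0.01), none lower. The median of all genes was -0.03 and -0.02. Over all genes, 3.35% were called higher at day 60 and 8.03% at day 2, and 1 of 11 is near the share of day 2. The interferon-gamma target Cxcl9, a T cell attractant, rose by 2.12 ± 0.33 at day 60 (adjusted p = 0.0024) and was at 0.54 ± 0.33 at day 2 (adjusted p = 0.356). The kinase gene Jak2 was called higher at both times, by 0.25 ± 0.06 and 0.22 ± 0.06 (adjusted p = 0.0212 and 0.0221). Of 8 genes of class I presentation, set against the same shares, 3 were higher at day 60 and none at day 2, and none was lower. The peptide transporter Tap1 rose by 0.79 ± 0.16 at day 60 (adjusted p = 0.0111) and was at -0.06 ± 0.16 at day 2.

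Cd86 (10439312), which binds CD28 on T cells, was not lower at day 2. It had 8.63, 8.80 and 8.90 in BLT1-/-KRasLA1 CS lungs against 7.73 in the pool, and 8.86, 8.77 and 8.68 in BLT1+/+KRasLA1 CS lungs against 8.08. The levels of day 2 were 7.94, 8.28 and 8.16 in BLT1-/- CS lungs against 7.64, and 8.03, 8.47 and 8.43 in BLT1+/+ CS lungs against 8.16. Its 2 pools lay 0.35 apart at day 60 and 0.52 apart at day 2. In 5 of 6 lungs of day 2 Cd86 was above its own pool, and the exception was BLT1+/+ replicate 1. Cd86 rose by 0.87 ± 0.13 at day 60 (1.82-fold, adjusted p = 0.0016) and was at 0.32 ± 0.13 at day 2 (adjusted p = 0.130). Without BLT1+/+ replicate 1, the exception just named, the response of day 2 was 0.39 (adjusted p = 0.0286). Over all genes that fit gave 3099 calls, against 2473 with the lung. It was the only 1 of 12 fits, each without 1 CS lung, that called Cd86 at day 2. Leaving out 1 pool gave 0.15 or 0.49, with no call.

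Costimulatory and inhibitory ligands on antigen-presenting cells were called higher in 5 of 10 at day 60 (median 0.55) and in 2 of 10 at day 2 (median 0.16), and none was lower. Cd86 is on this list, and without it 4 of 9 were called higher at day 60 and 2 of 9 at day 2. Of all genes, 3.35% and 8.03% were called higher. Pdcd1lg2, a PD-1 ligand, rose by 1.29 ± 0.21 at day 60 (adjusted p = 0.0033) and was at 0.28 ± 0.21 at day 2. Cd274, the other PD-1 ligand, rose by 0.91 ± 0.16 at day 60 (adjusted p = 0.0056) and was at 0.47 ± 0.16 at day 2 (adjusted p = 0.0763). Cd83, a maturation marker of dendritic cells that is also made by B cells, rose by 0.88 ± 0.10 at day 60 (adjusted p = 0.000317) and was at -0.31 ± 0.10 at day 2 (adjusted p = 0.0638). The 4-1BB ligand Tnfsf9 was the reverse case, at 0.03 ± 0.16 at day 60 and higher by 0.88 ± 0.16 at day 2 (adjusted p = 0.0030).

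Proteases and reductases of the endosome cut antigen and the invariant chain. Of 9 genes listed for this processing and measured, 6 were called higher at day 60 (median 0.54) and 2 at day 2 (median 0.07). None was lower. Not all of the 9 are proteases or reductases, and Marchf1 is neither. Over all genes, 3.35% were called higher at day 60 and 8.03% at day 2. Ctsz, a carboxypeptidase, rose by 0.77 ± 0.11 at day 60 and by 0.42 ± 0.11 at day 2 (adjusted p = 0.00111 and 0.0201). Lgmn, the asparagine endopeptidase, rose by 0.55 ± 0.10 (adjusted p = 0.0068) and by 0.33 ± 0.10 (adjusted p = 0.0490). The cathepsins Ctsb and Ctsd each rose by 0.54 ± 0.09 at day 60 (adjusted p = 0.0028 and 0.0029) and were at 0.22 ± 0.09 and 0.07 ± 0.09 at day 2.

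Flt3 (10535780) had the smallest range of the 9 genes, 0.77 log2 units. It had 8.32, 8.41 and 8.42 in BLT1-/-KRasLA1 CS lungs against 7.84 in the pool, and 8.28, 8.48 and 8.30 in BLT1+/+KRasLA1 CS lungs against 8.15. At day 2 it had 7.93, 7.88 and 7.83 in BLT1-/- CS lungs against 8.07, and 7.83, 7.71 and 7.90 in BLT1+/+ CS lungs against 8.12. The CS lungs of both genotypes overlapped at each time, and the 2 pools of day 60 lay further apart (0.30) than those of day 2 (0.05). Flt3 rose by 0.37 ± 0.09 at day 60 (1.30-fold, adjusted p = 0.0247) and was at -0.25 ± 0.09 at day 2 (adjusted p = 0.0768, below its own pool in 6 of 6 lungs). The rise lost its call without any of 3 of the CS lungs of day 60 (adjusted p = 0.0526 to 0.0575) and with the 8 arrays of day 60 alone (0.0569).

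Dendritic cell genes of several subsets were read beside Flt3, and the lists share some members. Over all genes, 3.35% were called higher and 0.677% lower at day 60, and 8.03% and 4.37% at day 2. Of 10 genes listed for conventional dendritic cells, not all particular to them, 4 were higher at day 60 (median 0.21), Flt3 among them. At day 2, 5 were lower (median -0.33), and none went the other way at either time. Kmo, an enzyme of tryptophan breakdown, rose by 0.48 ± 0.09 at day 60 (adjusted p = 0.0074) and fell by 0.83 ± 0.09 at day 2 (adjusted p = 0.000172). Kmo was also lower in the PBS pools of day 60 than in those of day 2, by -0.58 ± 0.11 (adjusted p = 0.0414). Itgax (CD11c), which alveolar macrophages share, rose by 1.05 ± 0.16 at day 60 (adjusted p = 0.0019) and was at 0.08 ± 0.16 at day 2. The transcription factor Bcl11a was at 0.31 ± 0.12 at day 60 (adjusted p = 0.219) and fell by 0.72 ± 0.12 at day 2 (adjusted p = 0.00179). Which cells gave the values of these listed genes was not tested.

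Of 12 genes of type 1 conventional dendritic cells, which take up dead cells and present them to CD8 T cells, 5 were higher at day 60, and 5 were lower and 1 higher at day 2. Itgae (CD103), an integrin also found on lung T cells, rose by 0.63 ± 0.09 at day 60 (adjusted p = 0.00169) and fell by 0.32 ± 0.09 at day 2 (adjusted p = 0.0388). Wdfy4, needed for cross-presentation, was at 0.33 ± 0.10 at day 60 (adjusted p = 0.0870) and fell by 0.64 ± 0.10 at day 2 (adjusted p = 0.0013). The member called higher at day 2 was Ifi205, an interferon-inducible gene (1.52 ± 0.25, adjusted p = 0.0021).

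Of 10 genes of type 2 conventional dendritic cells, 2 were higher and 1 lower at day 60, and 1 was higher and 3 lower at day 2. The transcription factor Irf4 rose by 0.97 ± 0.18 at day 60 (adjusted p = 0.0066) and was at -0.43 ± 0.18 at day 2 (adjusted p = 0.140). Cd209a, a lectin of type 2 and monocyte-derived dendritic cells, was lower at both times, at -0.66 ± 0.13 at day 60 and -0.85 ± 0.13 at day 2 (adjusted p = 0.0129 and 0.0016). Ccr6, which B cells also make, rose by 0.80 ± 0.09 at day 60 (adjusted p = 0.000203) and fell by 0.47 ± 0.09 at day 2 (adjusted p = 0.0037).

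Genes of mature dendritic cells, which migrate to lymph nodes, were higher in 6 of 9 at day 60 (median 0.59), and in 3 of 9 at day 2, where 1 was lower. The chemokine Ccl22 rose by 1.18 ± 0.13 at day 60 and by 0.63 ± 0.13 at day 2 (adjusted p = 0.000215 and 0.00705). The actin bundler Fscn1 rose by 1.11 ± 0.13 (adjusted p = 0.000511) and by 0.88 ± 0.13 (adjusted p = 0.0013). Ccr7, the homing receptor that naive T cells also carry, rose by 0.59 ± 0.11 at day 60 (adjusted p = 0.0062) and fell by 0.58 ± 0.11 at day 2 (adjusted p = 0.0035). Of 6 plasmacytoid dendritic cell genes, 2 were higher at day 60 and 1 lower at day 2, the lectin Siglech (0.33 ± 0.12 at day 60 and -0.56 ± 0.12 at day 2, adjusted p = 0.178 and 0.0082).

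**Figure D3:**
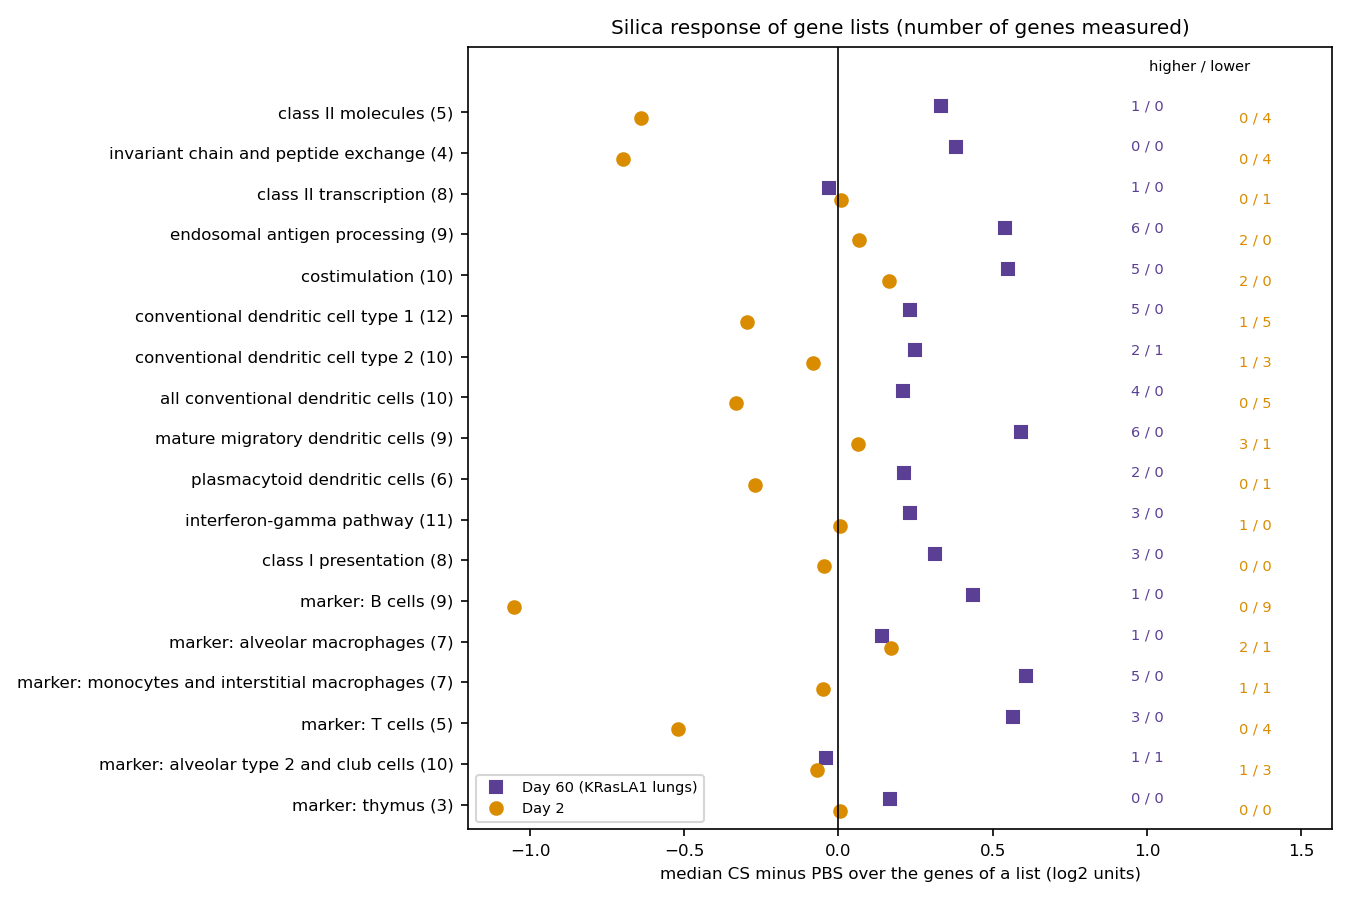
Median silica response (CS minus PBS, log2 units, averaged over BLT1 genotypes) of 18 gene lists, with the number of genes measured in brackets. Squares are day 60 and circles are day 2, and the numbers at the right count genes called higher and lower by limma. B cell markers have the lowest median at day 2 (-1.05), and class II transcription genes lie near 0 at both times.

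Markers of other cells that carry class II moved as well. B cell markers were called higher in 1 of 9 at day 60 (median 0.44) and lower in 9 of 9 at day 2 (median -1.05). Over all genes, 3.35% were called higher at day 60 and 4.37% lower at day 2. Ms4a1 (CD20) was at 0.75 ± 0.21 at day 60 (adjusted p = 0.0720) and fell by 1.55 ± 0.21 at day 2 (adjusted p = 0.000671). Over the 9 markers the mean level was 9.44 to 10.05 in CS lungs of day 60 (median 9.61) against 9.16 and 9.26 in the pools, and 8.29 to 8.98 in CS lungs of day 2 (median 8.40) against 9.56 and 9.73 in the pools. The mean of the 7 class II pathway genes, H2-Aa to Ciita, was 11.74 to 11.91 in CS lungs of day 60 against 11.44 and 11.49 in the pools, and 10.61 to 11.10 in CS lungs of day 2 (median 10.75) against 11.34 and 11.38. BLT1+/+ CS day 2 replicate 1 was the highest of the 6 CS lungs of day 2 in both means, with 8.98 for the B cell markers and 11.10 for the class II genes. Between the pools, the mean level of B cell markers was lower and that of class II genes higher at day 60 than at day 2. The part of B cells in the class II values was not tested.

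**Figure D4:**
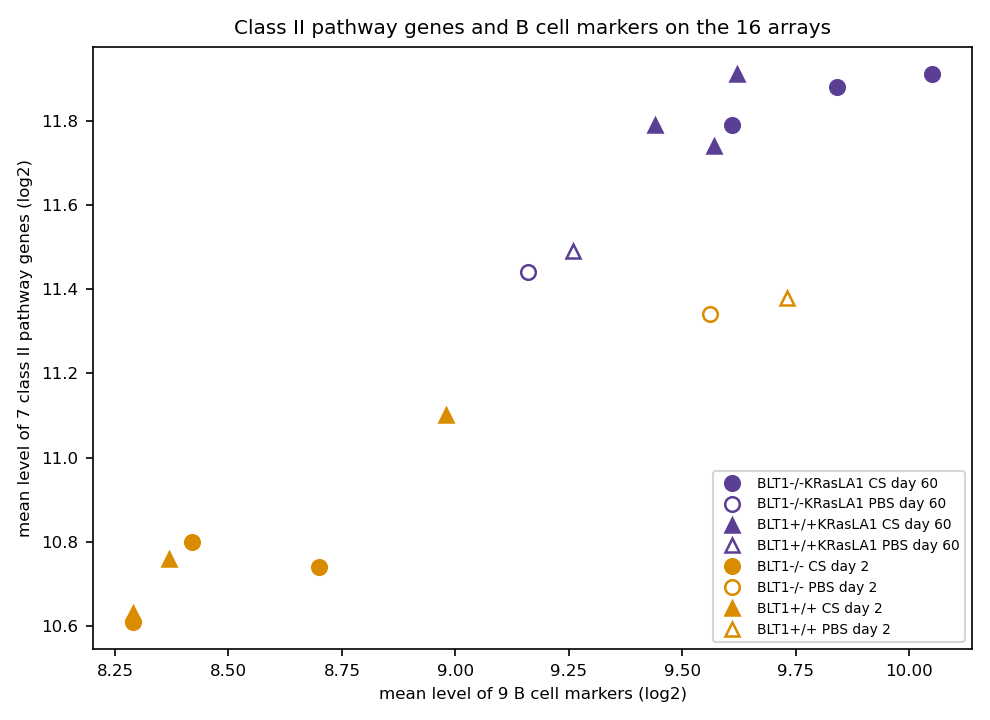
Mean log2 level of 9 B cell markers (horizontal axis) and of the 7 class II pathway genes (vertical axis) on each of the 16 arrays. Filled symbols are CS lungs, hollow symbols PBS pools, circles BLT1-/- and triangles BLT1+/+. The CS lungs of day 60 stand at the upper right and those of day 2 at the lower left, and the pools lie between them in class II level.

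T cell markers were higher in 3 of 5 at day 60 and lower in 4 of 5 at day 2, with Cd3e at 0.57 ± 0.13 (adjusted p = 0.0248) and -0.72 ± 0.13 (adjusted p = 0.0034). Monocyte and interstitial macrophage markers were higher in 5 of 7 at day 60 (median 0.61), and 1 was higher and 1 lower at day 2, with the complement gene C1qb at 0.98 ± 0.13 (adjusted p = 0.000863) and 0.40 ± 0.13 (adjusted p = 0.0616). Of 7 alveolar macrophage markers 1 was higher at day 60, and 2 were higher and 1 lower at day 2. Of 10 alveolar type 2 and club cell markers, 1 was higher and 1 lower at day 60, and 1 higher and 3 lower at day 2. Over all genes, 3.35% were called higher and 0.677% lower at day 60, and 8.03% and 4.37% at day 2. Single calls in lists this short are description only. Of 3 thymus genes none was called at either time, with Rag1 at 0.17 ± 0.17 and 0.00 ± 0.17. Their mean level was 7.63 in BLT1-/-KRasLA1 CS replicate 1, against 6.65 to 7.11 on the other 15 arrays. Without that lung 4 of the 9 genes were called higher at day 60, against 3 with it. The part of these cells in the class II values was not tested either.

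The difference of the responses, day 60 minus day 2, had its highest value in H2-DMa (1.13 ± 0.23, adjusted p = 0.0190), followed by H2-Oa (1.07 ± 0.18, 0.0058), H2-Eb1 (1.04 ± 0.17, 0.0063) and H2-Ab1 (1.00 ± 0.15, 0.0044). It was 0.55 ± 0.18 in Cd86, which did not pass (adjusted p = 0.155). Between the PBS pools of the 2 times none of the 9 genes was called by limma, where 0.396% of all genes were called. H2-DMa was at 0.39 ± 0.20 and H2-Ab1 at 0.26 ± 0.13 between the pools, both with an adjusted p of 0.53 and both higher at day 60. Between the CS lungs alone, the mean level of H2-DMa was 1.52 log2 units higher at day 60 than at day 2, and that of H2-Aa 0.78 higher.

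Each BLT1 genotype was then set against its own pool. At day 60 Cd86 was called in BLT1-/-KRasLA1 lungs (1.05 ± 0.18, 2.07-fold, adjusted p = 0.0144), and it was the only one of the 9, where 1.1% of all genes were called higher. Flt3 (0.54 ± 0.12, adjusted p = 0.0507) and Ciita (0.63 ± 0.16, adjusted p = 0.0893) did not pass. In BLT1+/+KRasLA1 lungs none of the 9 was called, where 0.687% of all genes were called higher, with Cd86 at 0.68 ± 0.18 (adjusted p = 0.124). The mean of Cd86 in CS lungs was 8.78 in BLT1-/-KRasLA1 and 8.77 in BLT1+/+KRasLA1, and the single pools were at 7.73 and 8.08. Without replicate 3 of the BLT1-/-KRasLA1 CS lungs the rise of Cd86 was 0.98 (adjusted p = 0.0539).

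At day 2, 4 of the 9 were called lower in BLT1-/- lungs, where 1.4% of all genes were called lower: H2-Aa (-0.56 ± 0.11), H2-Ab1 (-0.69 ± 0.15), H2-Eb1 (-0.79 ± 0.17) and H2-Oa (-0.72 ± 0.18), with adjusted p from 0.0133 to 0.0281. H2-DMa was at -0.79 ± 0.23 (adjusted p = 0.0540), and it passed with quantile normalization (0.0347), with the filter on low levels (0.0476) and with array weights (0.0214). In BLT1+/+ lungs none was called, where 0.311% of all genes were called lower, with H2-Aa at -0.47 ± 0.11 (adjusted p = 0.0663), H2-Ab1 at -0.59 ± 0.15 (0.0841) and H2-Oa at -0.65 ± 0.18 (0.0988). Same-numbered lungs of day 2 deviated together, and with the replicate number as a block 5 were called in BLT1+/+ lungs: H2-Aa (adjusted p = 0.0310), H2-Ab1 (0.0203), H2-Eb1 (0.0093), H2-DMa (0.0277) and H2-Oa (0.0439). Over all genes the block gave 730 calls in BLT1+/+ lungs, against 232 without it. In BLT1-/- lungs the block added H2-DMa (adjusted p = 0.0048) as lower and Cd86 as higher (0.0483). A pool has no replicate number, so the block takes spread out of the CS lungs alone. Without BLT1+/+ CS replicate 1, 5 genes were called in BLT1+/+ lungs, with H2-Ab1 at -0.76 (adjusted p = 0.000802) and Cd74 at -0.53 (0.0061), and 685 genes in all.

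A call in 1 genotype and not in the other does not show a difference, which was tested on its own. The BLT1 by silica interaction was called for none of the 9 genes at day 60 or day 2. Over all genes 0.0% were called at day 60 and 0.0% at day 2, with 396 and 896 genes at an unadjusted p below 0.05. The smallest unadjusted p among the 9 was 0.0745 at day 60 (Flt3, 0.33 ± 0.17) and 0.205 at day 2 (Cd86, 0.34 ± 0.25). The 95% interval of the interaction of H2-Ab1 ran from -0.58 to 0.35 at day 60 and from -0.56 to 0.37 at day 2, and the data allow an interaction of any size within these bounds.

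CS lungs of the genotypes compared directly gave no call among the 9 genes either, where 0.0401% of all genes were called at day 60 and 0.0201% at day 2. H2-Aa at day 2 came nearest, at -0.32 ± 0.08 (unadjusted p = 0.0013, adjusted p = 0.234 by limma). Its levels were 12.36 to 12.43 in BLT1-/- CS lungs and 12.59 to 12.92 in BLT1+/+ CS lungs, with pools at 12.95 and 13.18. How many of all genes separate by genotype in this way was not counted, so these ranges are description only. At day 60 the largest difference was 0.25 ± 0.12 in H2-Oa (adjusted p = 0.967), and that of H2-Ab1 was -0.06 ± 0.11.

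Over the 16 arrays the 7 class II pathway genes ran closely together, which is given as a description, since all share the same arrays and the same 8 groups. The highest Pearson r was 0.987, between H2-Ab1 and H2-DMa, and r was 0.984 between H2-Ab1 and Cd74. Cd86 stood apart, with r from 0.438 (H2-Eb1) to 0.631 (Ciita) against these genes. Within BLT1-/-KRasLA1 CS lungs replicate 3 was the highest in 6 of 9 genes, and within BLT1+/+KRasLA1 CS lungs replicate 2, the CS lung with high Eif2s3y, in 8 of 9. At day 2 the count was 6 of 9 for BLT1-/- replicate 2 and 7 of 9 for BLT1+/+ replicate 1. How often each of these lungs was highest over all genes was not counted. Genes that run together are not separate observations, so these counts are description only. The part of the Eif2s3y difference in them was not tested.

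Outside the 9 genes themselves, the genes whose levels were most like each of them over the 16 arrays included genes of B cells and other leukocytes. Among these other genes, H2-Eb1 was nearest to Cd22, a B cell lectin (r = 0.984), and to Cd2. Cd74 was nearest to H2-Eb2, Cd22 and the B cell adaptor Blnk (r = 0.962 each). H2-Oa was nearest to Siglech (r = 0.980), Lrmp and the B cell gene Fcrla.

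Of the genes outside the 9, Plcb2, a phospholipase of blood cells, was nearest to both H2-Ab1 (r = 0.983) and Ciita (r = 0.982). On the same count H2-DMa was nearest to Abcg1, a cholesterol exporter (r = 0.984), and H2-Aa to the lysosomal thioesterase Ppt1 (r = 0.964). Cd86 had another set of neighbours: the kinase Ikbke (r = 0.960), the adaptor Scimp of antigen-presenting cells and the receptor Havcr2. Flt3 was nearest to Cd48 (r = 0.944), Tspan32 and the integrin Itgb7.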

How the data were processed

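The deposited values are log2 expression levels per probe set, which the authors made in Partek 6.6 with RMA, as the submitters' processing notes state. The sources used here give neither the array design nor the step order. RMA brings the probes of all arrays to 1 distribution before it sums them up per probe set, so a change in total RNA would not be seen, and it pulls dim probe sets towards a floor. Array medians over all probe sets lay between 8.25 and 8.34, and no 2 arrays held the same values.

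Of 35556 probe sets, 21789 carried 1 gene symbol in the platform annotation, 1621 several and 12146 none, and 21698 were found in a RefSeq gene table (GRCm38.p6), with 0 symbols changed. The probe set with the highest mean was kept for each of 19938 genes. Genes on shared probe sets, H2-DMb1 among them, were not analysed here.

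Means of the 8 groups were fitted with limma 3.58.1 (R 4.3.3) to the 16 arrays (lmFit, eBayes with a trend; 8 residual and 5.4 prior degrees of freedom). Pools were taken to vary as much as single CS lungs. The 12 contrasts were tested two-sided with Benjamini-Hochberg adjustment over all genes at 0.05. Precision is limited by the number of arrays. Over genes, the standard error had a median of 0.10 log2 units for mean responses and BLT1 differences, 0.14 for 1 genotype, 0.12 for pools and 0.20 for interactions. The fit was tested on simulated data.

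Same-numbered lungs of day 2 deviated together over genes (r = 0.43, 0.20 and 0.34), and those of day 60 did not (0.09, 0.01 and 0.06). The main fit did not pair lungs by number. Pairing entered only through the replicate block, an alternative that covered both times. Named are the 9 genes, up to 4 other genes with the smallest p in a mean response from each list, and the 3 genes outside the 9 nearest in r to each, without predicted genes, small RNAs and receptor segments. The members and lists were chosen with earlier results of these data known. Alternatives were quantile normalization, a filter at the 25th percentile of mean level, array weights, mean probe sets, no trend, the replicate block, the 8 arrays of a day, and leaving out each CS lung or, for mean responses, each pool.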

Additional observations from a re-analysis of the deposited data

Results flagged for a closer look

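For 8 of the 9 genes the silica response differed between the times by limma's test of the difference, day 60 minus day 2. The differences in log2 units were 0.76 in H2-Aa, 1.00 in H2-Ab1, 1.04 in H2-Eb1, 0.68 in Cd74, 1.13 in H2-DMa, 1.07 in H2-Oa, 0.98 in Ciita and 0.62 in Flt3, with adjusted p between 0.0035 (H2-Aa) and 0.0327 (Cd74). The call of Cd74 was lost without the variance trend (adjusted p = 0.0606) and without any of 5 of the 12 CS lungs (0.0516 to 0.0604). No pool was left out in the test of this difference. In each of these genes 6 of 6 CS lungs were above their own pool at day 60 and 6 of 6 below it at day 2. These signs come from the same values as the calls, and all CS lungs of a group share a single pool array. The signs are thus description only and add no separate evidence. How many of all genes have such signs was not counted. The lungs of day 60 carried KRasLA1 and those of day 2 did not, so time and allele cannot be told apart. Both pools of day 60, unlike those of day 2, were also high in the Y-linked Eif2s3y, and its part was not tested.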

How the results depend on the processing

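Of 2070 values of single genes under the alternatives, 1981 stayed on their side of the threshold, 36 lost a call, 53 gained one and 0 changed sign from a called value. In the mean response of day 60, 8 genes were called with array weights, 6 with a replicate block and 6 with the 8 arrays of the day, against 3, where all genes gave 1729, 1098 and 886 calls, against 802. In the mean response of day 2 the count stayed between 5 and 8 of the 9 under alternatives that kept all arrays of the day. In BLT1-/-KRasLA1 lungs, 2 genes were called with quantile normalization, with the filter on low levels, without the trend and with the 8 arrays of the day, and 4 with array weights, against 1. In BLT1+/+KRasLA1 lungs, 1 was called with array weights and 1 with a replicate block, against 0. In BLT1-/- lungs of day 2, 2 were called with the 8 arrays of the day, against 4 (425 against 1315 over all genes), and 5 with quantile normalization, with the filter on low levels and with array weights, and in BLT1+/+ lungs of day 2, 5 with a replicate block, against 0. The causes were not tested. Leaving out 1 CS lung at a time gave 0 to 2 genes in BLT1-/-KRasLA1 and 0 to 1 in BLT1+/+KRasLA1 lungs. At day 2 it gave 3 to 6 in BLT1-/- and 0 to 5 in BLT1+/+ lungs. For the mean responses, leaving out 1 CS lung or 1 pool gave 0 to 6 at day 60 and 0 to 8 at day 2. Their difference gave 7 to 8 when 1 CS lung was left out. No pool was left out for it, so this range does not show how it depends on a pool. BLT1 differences, interactions and differences between pools gave 0 members in every alternative run. The replicate block covered both times, although same-numbered lungs of day 60 did not deviate together. The block changed no other call beyond those given here and in the report. With 1 pool per PBS group, a single array sets every control level.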
